A study of Mus musculus with 42 samples.

Results

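The 10 apolipoprotein genes Apoa1, Apoa2, Apoa4, Apoa5, Apob, Apoc1, Apoc2, Apoc3, Apoe and Apoh were examined across liver, skeletal muscle and visceral fat of Akt1+/- mice and wild-type littermates. They were chosen by the gene name that the array gives a probe. This took 15 of the 41174 probes that are not controls, and 33 of the 43379 spots. Each gene had 1 probe except Apoa5 and Apoc3 with 2 and Apob with 4, and the probes of Apoa1 and Apoe were each printed on 10 spots. The study asked how the loss of 1 copy of Akt1, a kinase of the insulin and IGF1 pathway, changes gene expression in a long-lived mouse. It used 42 one-colour Agilent arrays, 14 for each tissue. All mice were female on a C57BL/6 background. Each tissue had wild-type (Wt) mice at 8 weeks (n = 3) and 35 weeks (n = 4) and Akt1+/- mice at 8 weeks (n = 3) and 35 weeks (n = 4). The Akt1 allele is lost in every cell of the Akt1+/- mice, in the sampled tissue and elsewhere. Muscle was quadriceps, and the labels name no treatment.

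Apolipoproteins are the proteins of lipoprotein particles, which carry cholesterol and triglyceride in blood. The hepatocyte is the main source of most of them. Apob is the structural protein of very low density and low density lipoproteins, Apoa1 and Apoa2 form high density lipoprotein, Apoa4 and Apoa5 travel on triglyceride-rich particles, and the C apolipoproteins switch lipoprotein lipase on (Apoc2) or slow it and particle uptake (Apoc1, Apoc3). Apoe binds the receptors that clear remnants and is also made by macrophages and fat, and Apoh is a plasma glycoprotein that binds anionic phospholipids.

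Most of the genes lie in clusters. On mm8, the build of the array's coordinates, the probes of Apoa1, Apoc3, Apoa4 and Apoa5 lay within 41.2 kb of chromosome 9, and those of Apoc2, Apoc1 and Apoe within 24.9 kb of chromosome 7. Apoa2 is on chromosome 1, Apob on chromosome 12 and Apoh on chromosome 11. Windows before the start of the gene were taken from RefSeq (GRCm38.p6) for 8 of the 10 genes, as 12 windows of 250 bases each. Some genes have more than 1 window, so a count of genes is not the same measure as a share of windows. The letters CAAAGNNCA on either strand, a form of the site bound by the hepatocyte factor HNF4, were found in 5.49% of 32851 windows of all genes and in the windows of Apoa4, Apob and Apoh. The TATA box letters TATAAA, on either strand, were in 12.4% of all windows and in 4 of the 8 genes (Apoa2, Apoa5, Apob and Apoe, where Apoa2 and Apoe have them in only 1 of their windows). The 2 motifs did not overlap in the windows printed. The 3 windows that hold the first motif are shown, so that its letters can be read in place. Capitals mark the motif matches, and a match is a description of letters. The Apoa4 window is chr9:46240594-46240843, the Apob window chr12:7977427-7977676 and the Apoh window chr11:108395047-108395296, all on the plus strand.

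Apoa4: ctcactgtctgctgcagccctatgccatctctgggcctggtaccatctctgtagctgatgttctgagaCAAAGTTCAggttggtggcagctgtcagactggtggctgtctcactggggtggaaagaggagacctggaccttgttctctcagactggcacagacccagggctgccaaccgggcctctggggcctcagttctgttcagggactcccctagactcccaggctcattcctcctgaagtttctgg

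Apob: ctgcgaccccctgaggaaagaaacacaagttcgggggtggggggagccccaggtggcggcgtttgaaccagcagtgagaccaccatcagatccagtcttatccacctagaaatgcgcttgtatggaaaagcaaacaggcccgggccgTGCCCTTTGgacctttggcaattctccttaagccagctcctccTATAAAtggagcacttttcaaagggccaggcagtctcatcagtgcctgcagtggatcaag

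Apoh: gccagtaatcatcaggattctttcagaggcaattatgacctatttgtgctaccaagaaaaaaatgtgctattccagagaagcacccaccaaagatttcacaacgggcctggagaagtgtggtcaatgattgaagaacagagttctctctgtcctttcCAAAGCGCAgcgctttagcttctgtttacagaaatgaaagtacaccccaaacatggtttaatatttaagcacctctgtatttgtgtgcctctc

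Levels are given as log2 of the processed intensity minus the 75th percentile of the array, so that 0 is that percentile. The 75th percentile was 282 to 840 intensity units, and an array had 56.5 to 68.6% of its probes well above background, as called by the scanner software. No spot of these genes was saturated. The number of arrays limits the precision. Akt1 was checked first. In liver it lay between 3.23 and 3.59 in wild-type and between 2.51 and 2.98 in Akt1+/- mice, a genotype difference of -0.67 (SE 0.0738, limma adjusted p = 0.00227). In fat the difference was -0.56 (SE 0.0691, adjusted p = 0.00473). In muscle it was -0.58 (SE 0.104) with a limma adjusted p of 0.0762. That p was 0.0463 when the replicate number was taken as a block at 35 weeks. Of 26 alternatives, 4 passed (adjusted p from 0.000439 to 0.0463) and 22 did not (0.0593 to 0.208). The level was below that of every wild-type array of the same tissue and age on each Akt1+/- array.

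The level of hepatocyte markers differed widely among the muscle arrays and among the fat arrays. The summed level of 13 hepatocyte markers, in linear units relative to the 75th percentile, was 3690 to 5260 in liver. In muscle it was 0.658 to 1.70 on 10 arrays, and 64.2 on the array of the third Akt1+/- mouse at 8 weeks, 6.83 on the third wild-type mouse at 35 weeks, and 6.72 and 3.91 on the first and second wild-type mice at 8 weeks. In fat it was 14.4 and 7.17 on the first and second wild-type arrays at 8 weeks and 1.49 to 4.65 on the others. Albumin (Alb) was well above background on 13 of 14 muscle arrays and on all 14 fat arrays, whereas transthyretin (Ttr) was so on 1 muscle array and on 0 fat arrays. The summed level of 10 skeletal muscle markers was 5380 to 7450 in muscle, and that of 9 adipocyte markers 1640 to 2410 in fat. Adiponectin (Adipoq) was well above background on all 14 arrays of muscle as well as fat, and on 1 of 14 in liver.

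Liver, the organ that makes most plasma apolipoproteins, had the highest level of each of the 10 genes, though Apoe was only 2.20-fold higher than in fat. All 15 probes were well above background on all 14 liver arrays. In 1 limma fit over the 42 arrays, all 10 genes differed between liver and muscle and all 10 between liver and fat, where 85.8 and 86.3% of all 19862 genes tested differed, 40.8 and 45.6% of them with the higher level in liver. The number of calls alone does not set the 10 genes apart. The sizes were large. The liver level exceeded the muscle level by 13.52 (SE 0.520) for Apob, 13.07 (SE 0.519) for Apoa1 and 12.78 (SE 0.537) for Apoa2 on the log2 scale. Apoe differed least between liver and muscle, by 4.89 (SE 0.0814), and the other 6 genes by 9.19 to 12.43. Apoe, Apoc1, Apoc2 and Apoh were well above background on all 14 muscle arrays. For Apoa1, Apoa2, Apoa4, Apoa5, Apob and Apoc3 the values stand on muscle signals close to background. Where no array of a group was well above background, in muscle or in fat, a bound is given. Liver Apob was at least 4880-fold higher than muscle Apob in Akt1+/- mice at 35 weeks, and at least 11100-fold higher than fat Apob in Akt1+/- mice at 8 weeks. Apoa1 was at least 10700-fold and Apoa2 at least 13300-fold higher in liver than in muscle in Akt1+/- mice at 35 weeks. Apoh was at least 16100-fold higher in liver than in fat in Akt1+/- mice at 8 weeks. These bounds hold only for the processing used here. Averaged over the 4 groups, the log2 differences fell lower in some of 5 alternatives. The lowest were 9.55 (liver minus muscle) and 9.89 (liver minus fat) for Apob. For liver minus muscle they were 10.35 for Apoa1 and 10.36 for Apoa2, and for liver minus fat 10.37 for Apoh.

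**Figure D1:**
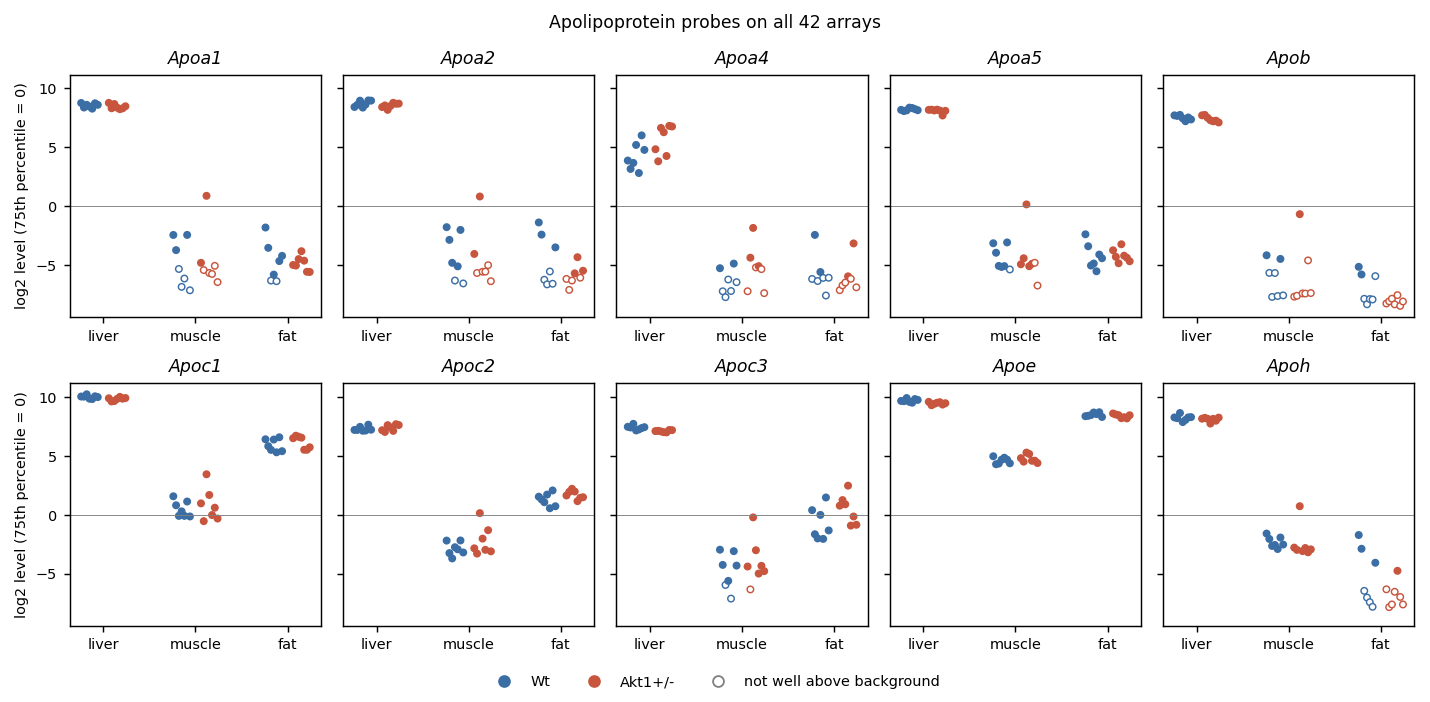
Log2 level of each gene (y axis, 0 is the 75th percentile of the array) on each of the 42 arrays by tissue (x axis), for the brightest probe of each gene. Blue points are wild-type arrays, red points Akt1+/- arrays and open points arrays where the probe was not well above background. Every gene was highest in liver, Apoe, Apoc1, Apoc2 and Apoc3 were above background on all 14 fat arrays, and 1 muscle array (0.89 for Apoa1) stood above the rest.

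Fat differed from liver least in the genes of the remnant and lipase group. The liver minus fat difference was 1.14 for Apoe (SE 0.0814, 2.20-fold, adjusted p = 1.04e-14), 3.84 for Apoc1 (SE 0.265), 5.82 for Apoc2 (SE 0.250) and 7.36 for Apoc3 (SE 0.493). It was 10.74 to 14.96 for the other 6 genes. With another background correction and quantile normalization the Apoe difference was 0.15 and no longer passed the test (adjusted p = 0.0577).

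Between fat and muscle, 6 of the 10 genes passed the test where 87.7% of all genes did (42.7% higher and 44.9% lower in fat). The 4 genes that were higher in fat were Apoc1, by 5.35 (SE 0.265, 40.8-fold), Apoc3, by 4.22 (SE 0.493, 18.6-fold), Apoc2, by 4.04 (SE 0.250, 16.4-fold), and Apoe, by 3.76 (SE 0.0814, 13.5-fold). Apoe is made by macrophages. The summed level of 13 macrophage markers was 294 to 398 in fat and 30.8 to 87.9 in muscle, that of the adipocyte markers was 228 to 439 in muscle, and their part in these differences was not tested. Fewer cells of a type and less RNA per cell cannot be told apart in whole tissue.

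Apoh ran the other way. Its fat minus muscle difference was -3.68 (SE 0.409, adjusted p = 5.12e-10), and it was well above background on all 14 muscle arrays and on 4 of 14 fat arrays. Without the 3 muscle and 2 fat arrays with the highest hepatocyte marker sum, Apoh lay between -3.16 and -2.03 in 11 muscle arrays and between -7.81 and -4.05 in 12 fat arrays, of which 2 were well above background. Apob, which is also made by hepatocytes, was well above background on 0 of those 11 muscle arrays and 0 of those 12 fat arrays. The hepatocyte markers were mixed. Of all 14 arrays a tissue, Alb was well above background on 13 in muscle and 14 in fat, and Ahsg on 14 in both. Fgb was so on 11 in muscle and 8 in fat, and Ttr on 1 and 0. Without the 1 array with the highest marker sum in each tissue, median linear levels also differed in direction. They were 0.138 in muscle and 0.0084 in fat for F2, and 0.0423 and 0.0172 for Fgb. For Alb they were 0.206 and 1.28, and for Ahsg 0.164 and 0.328. The source of the Apoh signal was not tested. The fat minus muscle difference of Apob was -1.44 (SE 0.520, adjusted p = 0.0111), between groups that were mostly at background. Apoa1, Apoa2, Apoa4 and Apoa5 did not pass (differences from -1.02 to 0.11).

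The genes whose levels ran most like those of each member over the 12 groups (the smallest mean absolute difference of centred log2 group means among 19852 other genes) were mostly genes with large differences between liver and the other tissues. For Apoa1 this was F12, coagulation factor XII, with a mean difference of 0.29, for Apob it was Pzp, a plasma protease inhibitor, with 0.31, and for Apoh it was F2, prothrombin, with 0.34. For Apoc2 it was Gys2, the liver glycogen synthase, with 0.23. For Apoe it was Cyb5a, a cytochrome b5, with 0.15. The nearest genes of Apoa2, Apoa4, Apoa5, Apoc1 and Apoc3 were Cyp3a44 (0.34), Pdzk1 (0.52), Fbp1 (0.22), Akr1c13 (0.24) and Ttpa (0.41).

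The genotype comparison asks whether the loss of an Akt1 copy moved these genes. In liver, where all 10 genes were tested, only Apoc3 passed the test for genotype averaged over both ages. This is 1 of 10, where 5.96% of the 17561 genes tested in liver passed and 2.41% passed with a lower level in Akt1+/- mice. The differences of the 10 genes had a median of -0.13, and 8 of the 10 were below 0, against a median of 0.01 over all genes tested. The count below 0 was 5 of 10 with the other background correction and quantile normalization and 9 of 10 when arrays were scaled to their median, which moved the genotype difference of all genes by -0.121.

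Apoc3, the inhibitor of lipoprotein lipase, was lower in Akt1+/- livers. Its log2 level was 7.48, 7.42 and 7.73 in wild-type mice, against 7.11, 7.14 and 7.08 in Akt1+/- mice at 8 weeks. At 35 weeks it was 7.17, 7.25, 7.37 and 7.45 in wild-type mice, against 7.02, 7.001, 7.21 and 7.19 in Akt1+/- mice. All 3 young wild-type arrays lay above the 3 young Akt1+/- arrays, and the genotypes overlapped at 35 weeks. The fitted difference was -0.32 (SE 0.0735), a level 0.802 times that of wild-type, with a limma adjusted p of 0.0298 over all genes tested in liver. An exact permutation test of the genotype labels within each age gave an unadjusted two-sided p of 0.00429. The smallest p that 1400 arrangements allow is 0.000714. The share of all liver genes with a permutation p as low was not counted. At 8 weeks alone the difference was -0.43 (SE 0.111, adjusted p = 0.0617), and at 35 weeks -0.20 (SE 0.0963, adjusted p = 0.306), where 2.11 and 3.41% of all genes passed. The difference between the ages did not pass (0.23, SE 0.147, adjusted p = 0.528).

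The call for Apoc3 was close to the threshold. The other Apoc3 probe, at chr9:45984275-45984334 on mm8 and sharing 50 bases with the brighter one at chr9:45984265-45984324, gave -0.29 (SE 0.114) with an adjusted p of 0.147 in a fit of every probe, where 4.36% of 25981 probes passed. With slide as a random block the adjusted p was 0.0684, and leaving out any of 7 of the 14 arrays took it to between 0.0531 and 0.0592. With the other background correction and quantile normalization the difference was -0.11 (adjusted p = 0.299). No slide held livers of both genotypes at either age, so slide and genotype cannot be told apart in liver. The summed level of the hepatocyte markers moved the same way. At 8 weeks it was 4530 to 5260 in wild-type mice against 3690 to 4160 in Akt1+/- mice. At 35 weeks it was 4010 to 4930 in wild-type mice against 3770 to 4170 in Akt1+/- mice. Its part in the Apoc3 difference was not tested.

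Apoe, the ligand for remnant clearance, was 9.67, 9.65 and 9.91 in young wild-type livers, and 9.59, 9.31 and 9.43 in young Akt1+/- livers. At 35 weeks it was 9.59, 9.52, 9.83 and 9.76 in wild-type mice, and 9.51, 9.57, 9.36 and 9.48 in Akt1+/- mice. The genotypes overlapped at 35 weeks alone. The difference was -0.25 (SE 0.0785, limma adjusted p = 0.0753). The exact permutation p within age was 0.00286, which is unadjusted and so not comparable with the adjusted p. Apoc1, a neighbour of Apoe, was 10.04, 10.04 and 10.23 in young wild-type livers, all above the 9.90, 9.63 and 9.66 of young Akt1+/- livers. At 35 weeks it ranged from 9.83 to 10.06 in wild-type mice, and from 9.84 to 10.01 in Akt1+/- mice. Its difference averaged over the ages was -0.20 (SE 0.0713, adjusted p = 0.101). Apoc1, Apoc3 and Apoe were thus 3 of 10 genes whose genotypes did not overlap in the livers of 8-week-old mice, where 25.1% of all genes tested did not overlap and 14.2% did not overlap and were lower in Akt1+/- mice.

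**Figure D2:**
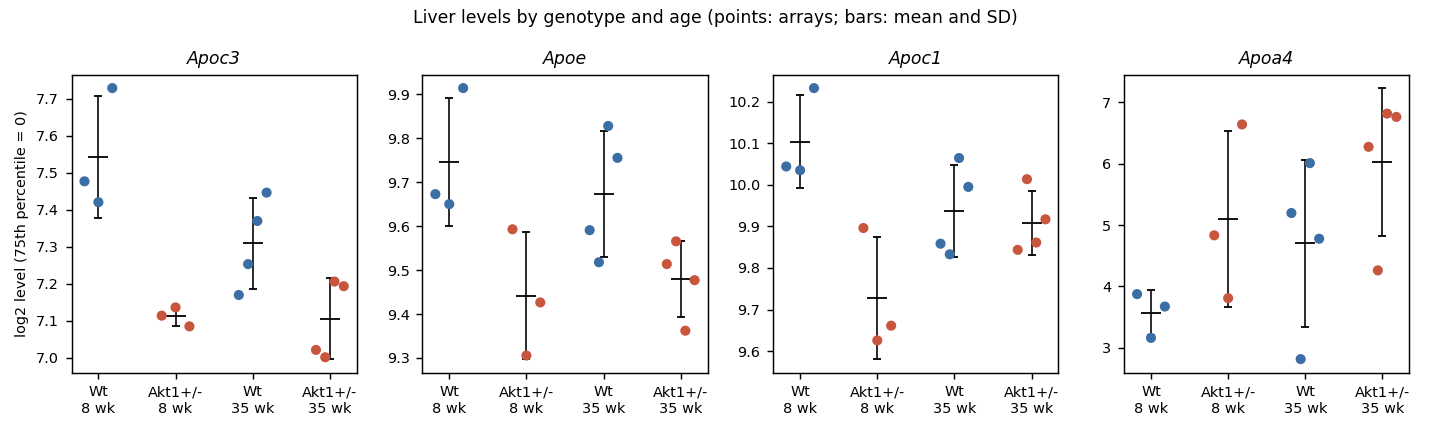
Log2 level in liver (y axis, 0 is the 75th percentile of the array) of Apoc3, Apoe, Apoc1 and Apoa4 in the 4 groups (x axis). Points are arrays, horizontal marks and bars are the mean and SD of 3 arrays at 8 weeks and 4 at 35 weeks. The 3 young Akt1+/- arrays lie below the 3 young wild-type arrays for Apoc3, Apoe and Apoc1, and Apoa4 spreads from 2.82 to 6.82.

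Apoa4 was the gene that varied most. Its probe, which spans 744 bases of the genome and so crosses a splice junction, ranged over 16.0-fold among the 14 livers, while the other 9 genes ranged over 1.45-fold to 1.86-fold. The level was 3.88, 3.16 and 3.67 in wild-type mice, against 4.83, 3.81 and 6.64 in Akt1+/- mice at 8 weeks. At 35 weeks it was 5.20, 2.82, 6.01 and 4.78 in wild-type mice, against 6.27, 4.26, 6.82 and 6.76 in Akt1+/- mice. The Akt1+/- livers were higher on average, and the genotypes overlapped at both ages. The SD within groups was 1.19, which 0.535% of the genes tested in liver exceeded, against 0.11 to 0.24 for the other 9 genes and a median of 0.22 over all genes. The difference was 1.43 (SE 0.577, 2.69-fold) with a limma adjusted p of 0.142, and the unadjusted exact permutation p within age was 0.0386. The labels give no pairing, and same-numbered arrays of the 2 genotypes deviated together at 35 weeks and not at 8 weeks. With the replicate number as a block, the adjusted p was 0.0567 where the block was used at 35 weeks alone. It was 0.0373 where the block was used at both ages, for which the 8-week arrays gave no ground. With slide as a random block it was 0.23.

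The same livers were high in Cidec, a lipid droplet protein of fat and of fat-laden hepatocytes. The 5 livers with the highest Apoa4, at 6.01 to 6.82, were the 5 with the highest Cidec, and 4 of them were among the 5 with the highest Apoc2. They were the third Akt1+/- mouse at 8 weeks, all but the second Akt1+/- mouse at 35 weeks and the third wild-type mouse at 35 weeks. Cidec lay between 5.09 and 6.53 in these and between 1.86 and 4.70 in the other 9. It was singled out after its values were seen, and how many other genes were highest in the same 5 livers was not counted. The summed level of the 9 adipocyte markers, which include Cidec, was 22.5 to 28.1 in young wild-type livers against 38.8 to 125 in young Akt1+/- livers. The sum at 35 weeks was 29.5 to 60.2 in wild-type mice against 41.8 to 96.9 in Akt1+/- mice. Because Cidec is part of the sum, the sum is not a result separate from Cidec. Leptin (Lep) was well above background on 0, Adipoq on 1 and perilipin 1 (Plin1) on 1 of the 14 liver arrays. Fabp4, another of the 9 markers, was so on all 14 and lay between 1.79 and 2.99. The part of these differences in the Apoa4 level was not tested.

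The high density lipoprotein genes and Apoa5 did not pass for genotype in liver. Apoa1 lay between 8.23 and 8.76 over the 14 arrays and Apoa2 between 8.17 and 8.97. Apoa5, which promotes the clearance of triglyceride, lay between 7.70 and 8.36. Their genotype differences were -0.08 (SE 0.101), -0.17 (SE 0.119) and -0.10 (SE 0.0807), with adjusted p values of 0.628, 0.379 and 0.436 by limma. Apoc2, the activator of lipoprotein lipase, lay between 7.04 and 7.70 with a genotype difference of 0.08 (SE 0.126, adjusted p = 0.723). Apoh lay between 7.75 and 8.65 with a difference of -0.14 (SE 0.105, adjusted p = 0.419). The genotype difference of Apob was -0.11 (SE 0.0697, adjusted p = 0.318).

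The age comparison asks what differed between 8 and 35 weeks. Of the 10 genes in liver, only Apob passed the test, where 34.7% of all genes tested passed and 14.7% passed with a lower level at 35 weeks. The median difference of the 10 genes was -0.01 against 0.02 over all genes. Scaling to the array median moved the age difference of all genes by -0.195, and then 5 of the 10 genes passed, all lower at 35 weeks (Apoa1, Apob, Apoc3, Apoe and Apoh). No scan day held both ages of liver, of muscle or of fat, so scan day and age cannot be told apart in any of these tissues.

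The Apob probes disagreed on the direction. The 4 probes lie on chromosome 12 over 17.8 kb of mm8, taken here in the order of transcription, the last pair side by side at chr12:8042336-8042395 and chr12:8042396-8042455 and the other pair upstream at chr12:8024684-8026893 and chr12:8037943-8038002. The first is placed over 2210 bases and so crosses a splice junction. The brightest probe, the third in order, lay between 7.50 and 7.74 at 8 weeks (median 7.71, n = 6) and between 7.10 and 7.53 at 35 weeks (median 7.27, n = 8). The fourth lay between 7.59 and 7.92 at 8 weeks and between 7.20 and 7.53 at 35 weeks. Both were lower at 35 weeks, and for the fourth the ages did not overlap.

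The upstream probes of Apob were higher at 35 weeks. The first in order lay between 2.30 and 2.63 at 8 weeks and between 2.85 and 3.12 at 35 weeks, and the second between 1.46 and 1.72 and between 1.79 and 2.03. The ages did not overlap for either, as for 7.46% of all liver probes tested. In a fit of every probe the age differences in this order were 0.45 (SE 0.0704), 0.29 (SE 0.063), -0.38 (SE 0.0711) and -0.40 (SE 0.0694). The adjusted p values were 0.000517, 0.00405, 0.0018 and 0.00114, where 33.5% of the probes passed. With the mean of all probes in place of the brightest, the Apob age difference was -0.01 (adjusted p = 0.937). The genotype differences of the 4 probes were -0.12 to -0.04 and none passed (adjusted p from 0.274 to 0.741). On the array's coordinates no exon or intron was assigned here.

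**Figure D3:**
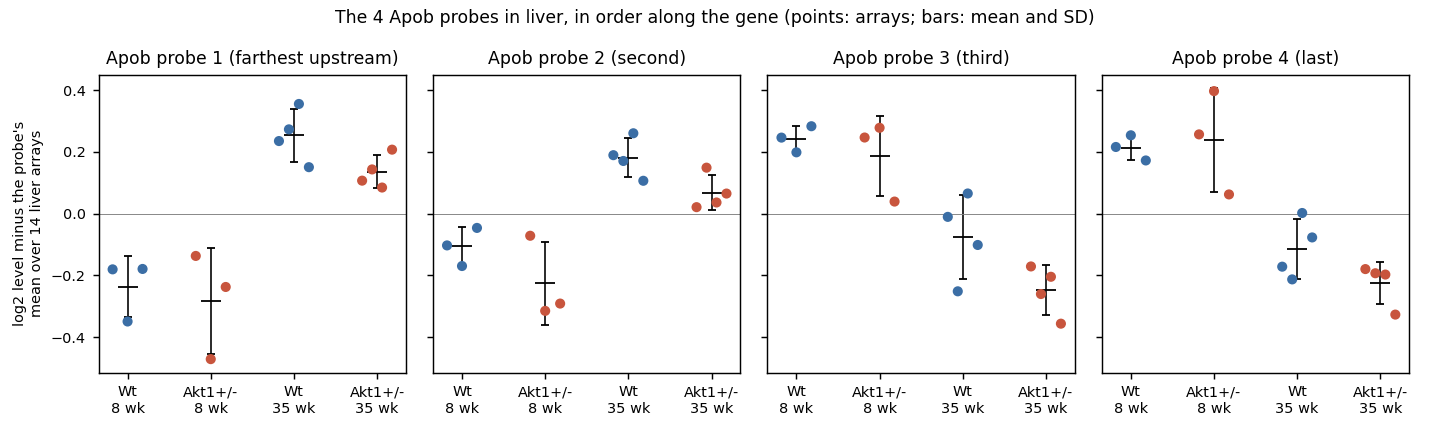
Log2 level of the 4 Apob probes in liver, each minus its mean over the 14 liver arrays (y axis), in the 4 groups (x axis), with panels in the order of the probes along the gene. Points are arrays, horizontal marks and bars are the mean and SD. The first 2 probes are higher and the last 2 lower at 35 weeks in both genotypes.

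Genes that act with the apolipoproteins were taken as lists of their roles. The 6 lists held 108 genes, of which 99 were tested in liver. In the list of cholesterol efflux and biliary export, 1 of the 12 genes tested in liver passed for genotype, where 5.96% of all genes did. This was Abcb11, the bile salt export pump, which was lower in Akt1+/- mice (-0.33, SE 0.0816, 0.794-fold, adjusted p = 0.0359). Abcb11 missed the threshold in 15 of 25 alternatives, among them slide as a random block (adjusted p = 0.0792) and the replicate block (adjusted p = 0.0622), and its difference ran from -0.45 to -0.15 over them (adjusted p from 0.00856 to 0.438). The lists of other lipoprotein components (18 tested), particle assembly (16 tested), receptors and uptake (16 tested) and transcription factors of apolipoprotein genes (27 tested) had 0 calls for genotype in liver. Their median differences were -0.03, -0.11, -0.06 and -0.06, against 0.01 over all genes. In muscle 0 of 79 list genes passed for genotype, as did 0 of all 17139 genes. In fat 1 of 85 passed, where 0.779% of all 18366 genes did. This was Soat1, which esterifies cholesterol (0.67, SE 0.136, 1.59-fold, adjusted p = 0.0473), and it missed the threshold in 14 of 26 alternatives. The Soat1 difference ran from 0.59 to 0.79 over the 26 (adjusted p from 0.000915 to 0.128), and the adjusted p was 0.0958 without the 2 fat arrays with the highest hepatocyte marker sum.

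More of the list genes passed for age. In liver 13 of the 99 passed (4 higher and 9 lower at 35 weeks), in muscle 18 of 79 (10 higher and 8 lower) and in fat 13 of 85 (5 higher and 8 lower), where 34.7, 30.9 and 19.1% of all genes tested passed.

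In muscle 1 array had the highest level of each of these genes. All 10 genes and all 13 hepatocyte markers had their highest muscle level on the array of the third Akt1+/- mouse at 8 weeks. Apoa1 was 0.89 there, while it lay between -7.12 and -2.43 on the other 13 arrays. Taken as the excess over the median of the other arrays, in percent of the mean liver level, the signal on that array was 0.349 to 1.92% for the 10 genes (median 0.53%) and 0.177 to 4.82% for the 13 markers (median 0.385%). Apoe had the highest of the 10 percentages, and the others were 0.349 to 0.996%.

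Of the 10 genes, 7 passed the filter on dim probes in muscle (a probe had to be called well above background on 3 or more arrays of 1 group), all but Apoa1, Apoa4 and Apob. None of the 7 passed the test for genotype or age, where 0.0% of the genes tested in muscle passed for genotype (0 of 17139 by limma, and 0 of the 7 had an unadjusted p under 0.05) and 30.9% for age. Apoa2 had the lowest p for age (adjusted p = 0.103) and was 1 of 7 with an unadjusted p under 0.05. Its probe met the filter through the young wild-type mice alone and was well above background on 0 of the 4 older Akt1+/- arrays, so no size is given. It passed when the third wild-type array at 35 weeks (adjusted p = 0.0415) or the second Akt1+/- array at 8 weeks (adjusted p = 0.0406) was left out. With the probe well above background on 7 of 14 muscle arrays, these calls are not read as an age difference. Without the 3 muscle arrays with the highest hepatocyte marker sum, 5 genes were tested and none passed. Of the age differences 7 of 7 were below 0 (median -0.63), and 2 of 5 were (median 0.17) without those arrays. The spread among the muscle arrays was wide for all but Apoe, with an SD within groups of 0.99 to 2.04 for 6 of the 7 genes against a median of 0.20 over all genes tested, so that the SE of a genotype difference was 0.484 to 0.992 on the log2 scale. Apoe lay between 4.30 and 5.29 with a genotype difference of 0.18 (SE 0.161, adjusted p = 0.539).

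**Figure D4:**
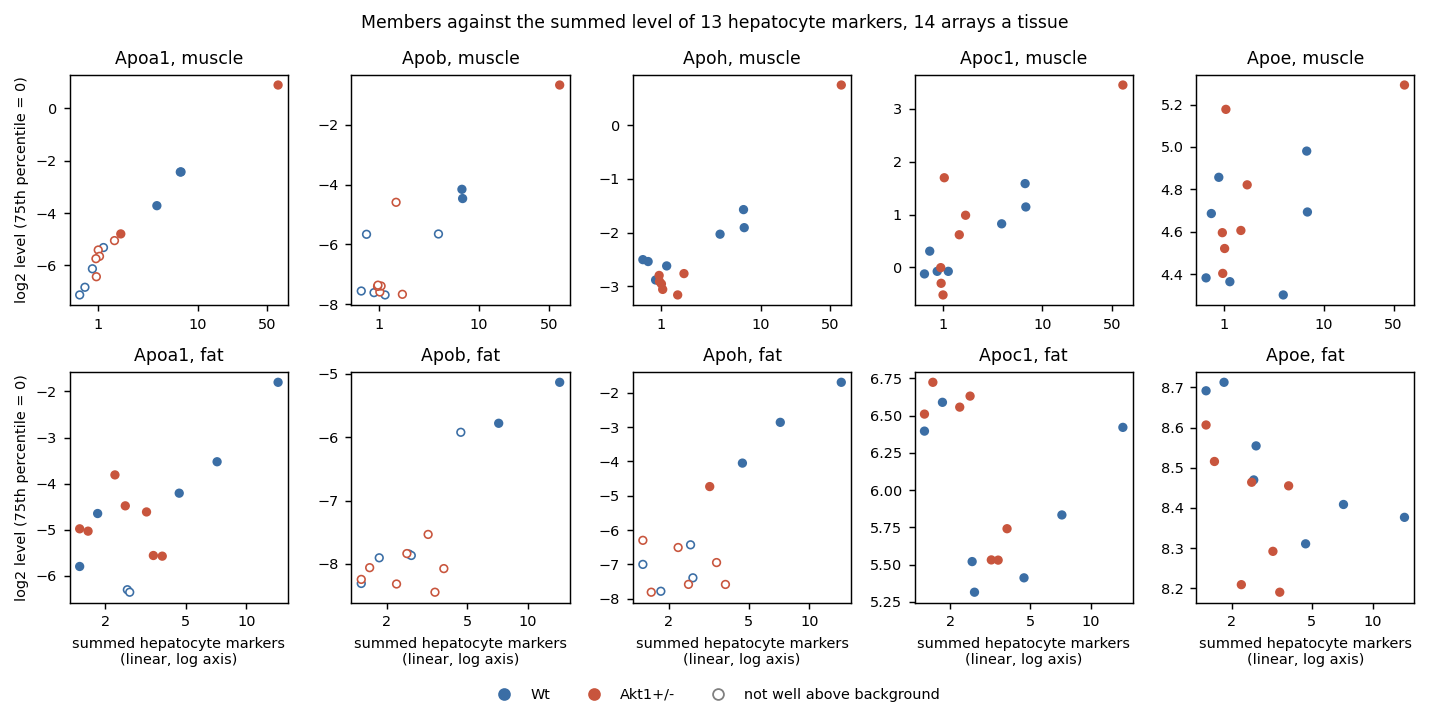
Log2 level of Apoa1, Apob, Apoh, Apoc1 and Apoe (y axes, each with its own scale) against the summed linear level of 13 hepatocyte markers (x axis, log scale) on 14 muscle arrays (top) and 14 fat arrays (bottom). Blue points are wild-type arrays, red points Akt1+/- arrays and open points arrays not well above background. The muscle array with a sum of 64.2 is highest for all 5 genes, and the fat array with a sum of 14.4 is highest for Apoa1, Apob and Apoh and not for Apoc1 or Apoe.

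In fat the genes fell into those that were highest on the array with the highest hepatocyte marker sum and those that were not. The first wild-type array at 8 weeks had the highest fat level of Apoa1, Apoa2, Apoa5, Apob and Apoh, and of 10 of the 13 hepatocyte markers. Apoa1 was -1.80 there and between -6.35 and -3.52 on the other 13. Apoa4 was highest on the second wild-type array at 8 weeks. Apoc1, Apoc2, Apoc3 and Apoe were highest on 4 other arrays, which had no more than 2.51 of summed hepatocyte markers. These 4 genes were well above background on all 14 fat arrays, Apoa5 was too, and Apob was so only on the 2 arrays with the highest hepatocyte marker sum.

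The filter kept 7 genes in fat, all but Apoa4, Apob and Apoh, and none passed for genotype (0.779% of all genes passed) or age (19.1%), and 0 of the 7 had an unadjusted p under 0.05 for either by limma. Of the age differences 7 of 7 were below 0 (median -0.39), and 3 of 7 were (median 0.24) without the 2 arrays with the highest hepatocyte marker sum. None of the 7 passed for genotype at 8 weeks either, where 1.86% of all genes tested passed and 1 of the 7 (Apoa2) had an unadjusted p under 0.05 by limma. The Apoa2 probe was well above background on 2 of 3 young wild-type arrays and on 0 of 3 young Akt1+/- arrays, so the size of its difference is not given. It met the filter through the older Akt1+/- mice alone (3 of 4 arrays), and its p-values in fat are not read as a genotype difference. The 2 wild-type arrays with the highest hepatocyte marker sum, at -1.37 and -2.40, were far above the third wild-type array at -6.23, beside -6.16, -7.09 and -6.30 in young Akt1+/- mice. Leaving out the third wild-type array gave a call for Apoa2 averaged over the ages (adjusted p = 0.0494), and leaving out the 2 arrays with the highest hepatocyte marker sum gave an adjusted p of 0.971. For genotype at 35 weeks 0 of the 7 passed, where 1.7% of all genes tested did. Apoe was the 1 of 7 with an unadjusted p under 0.05 there (-0.28, SE 0.0996, limma adjusted p = 0.247).

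The C apolipoproteins varied widely among the fat arrays. Apoc3 was 0.41, -1.63 and -1.99 in wild-type mice, against 0.79, 1.26 and 0.91 in Akt1+/- mice at 8 weeks. In the older mice it was 0.01, -2.03, 1.48 and -1.31 in wild-type mice, against 2.49, -0.90, -0.13 and -0.83 in Akt1+/- mice. The young Akt1+/- arrays were all above the young wild-type arrays, and the genotypes overlapped at 35 weeks. Apoc3 thus ranged over 22.8-fold among the 14 fat samples, Apoc2 over 3.13-fold and Apoc1 over 2.65-fold, while Apoe ranged over 1.44-fold. The other Apoc3 probe ranged over 24.6-fold.

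Of the 6 arrays with the lowest level of each of Apoc1, Apoc2 and Apoc3, 4 were shared by the 3 genes. These were the second wild-type mouse and the fourth wild-type mouse at 35 weeks, the second Akt1+/- mouse at 35 weeks and the third wild-type mouse at 8 weeks. The genotype differences were 1.34 for Apoc3 (SE 0.659, 2.53-fold, adjusted p = 0.287), 0.44 for Apoc2 (SE 0.235, adjusted p = 0.321) and 0.30 for Apoc1 (SE 0.245, adjusted p = 0.515), and none passed. The genotypes did not overlap in fat at 8 weeks for 3 of the 7 genes tested, these same 3, where 27.1% of all genes tested did not overlap. On slide 1, which held the third wild-type mouse and the 3 young Akt1+/- mice, the Apoc3 difference was 2.97. At 35 weeks fat of both genotypes shared no slide and no scan day, so neither can be told apart from genotype there. Muscle of both genotypes shared no slide at 35 weeks, so slide and genotype cannot be told apart there either.

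**Figure D5:**
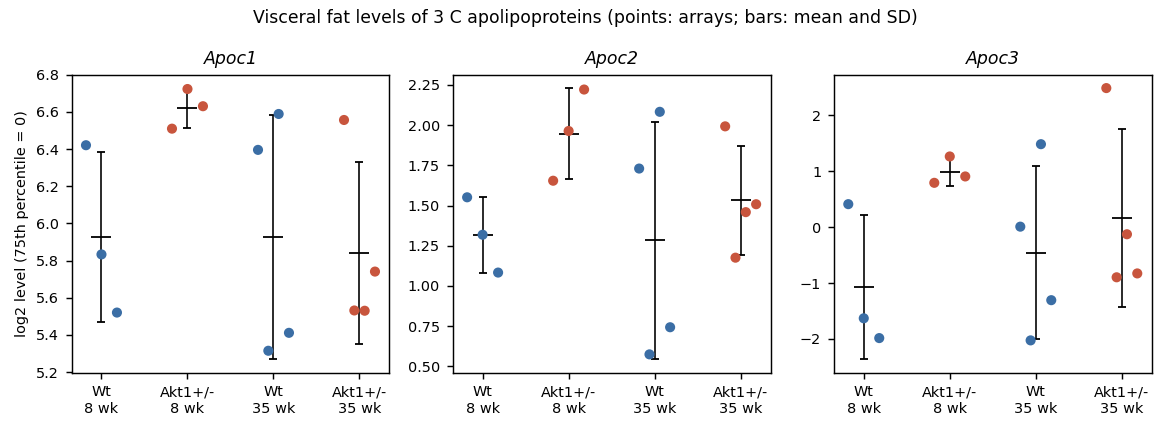
Log2 level in visceral fat (y axes, 0 is the 75th percentile of the array) of Apoc1, Apoc2 and Apoc3 in the 4 groups (x axis). Points are arrays, horizontal marks and bars are the mean and SD. The 3 young Akt1+/- arrays lie above the 3 young wild-type arrays in each panel.

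Whether the genotype difference itself differed between tissues was tested in the fit over all 42 arrays. None of the 10 genes passed for liver against muscle, liver against fat or fat against muscle, where 0.952, 4.21 and 0.765% of all genes passed. The lowest unadjusted p values were 0.0119 for Apoe between liver and muscle (-0.43, SE 0.163, adjusted p = 0.172) and 0.0489 for Apoh between fat and muscle (adjusted p = 0.318). Apoh was well above background on 4 of 14 fat arrays and did not meet the filter in fat, so no size is given. For Apoc3, which passed in liver alone, the difference of the genotype differences was -1.66 between liver and fat (SE 0.987, adjusted p = 0.367). No interaction of genotype and age passed for any of the 10 genes in liver or of the 7 tested in fat and in muscle, where 0.507, 1.48 and 0.0% of all genes passed. By unadjusted p, 1 of the 10 in liver (Apoc1), 2 of the 7 in fat (Apoa2 and Apoe) and 0 of the 7 in muscle were under 0.05. The Apoa2 probe was well above background on only 6 of 14 fat arrays.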

How the data were processed

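RNA of liver, quadriceps muscle and visceral fat of female mice was hybridised to 42 Agilent one-colour arrays. Per the labels, the authors extracted the intensities with Agilent Feature Extraction 9.1, while the header of the deposited scanner output gives 9.5.3.1. The intensity used is the processed signal, from which the software had subtracted the background. Besides it, the authors deposited a table of log2 values of the same arrays, close to the log2 processed signal scaled to the 75th percentile, which was used as an alternative. The labels give the older age as 35 weeks, and the study's methods give a slightly later age and 3 mice a group.

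Probes were named through RefSeq accessions (24375) or older symbols (2426) of the GRCm38.p6 table, otherwise by the array's name. Outlier spots were left out and spots of a probe averaged. A probe entered a tissue's test if 3 or more arrays of 1 group called it well above background, and the brightest such probe stood for a gene (17561 genes in liver, 17139 in muscle, 18366 in fat and 19862 over 42 arrays). Limma 3.58.1 in R 4.3.3 fitted 1 mean per group. Contrasts were genotype averaged over ages, age averaged over genotypes, their interaction, genotype at each age, tissue and tissue by genotype, with Benjamini-Hochberg adjustment over all genes tested and a threshold of 0.05. The statistics were tested on simulated data. Python 3.11.15, pandas 2.3.3 and numpy 2.4.6 made the tables and matplotlib 3.10.9 the figures.

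The genes named are the 10 members, Akt1, the list genes past the threshold for genotype (at most 3 a list and tissue) and the gene most like each member, apart from Cidec, which was singled out after its values were seen. A list result is not reported here. The members and lists were chosen with earlier results of these data known. The labels do not state which arrays share a mouse, so p-values measure the spread between these samples. Same-numbered arrays of the 2 genotypes deviated together at 35 weeks (correlation of deviations 0.109 to 0.522 in 12 pairs) and not at 8 weeks (-0.195 to 0.071 in 9 pairs). At 35 weeks the number is also the position on the slide. The alternatives were another background correction with quantile normalization (normexp, offset 50), median scaling, the authors' table, the dim-probe filter, the mean of all probes, the methods' two-way test, 1 fit over 42 arrays, replicate and slide blocks, and leaving out each array.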

Additional observations from a re-analysis of the deposited data

Results flagged for a closer look

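In the groups of 4 arrays at 35 weeks, 4 of 60 combinations of gene, tissue and genotype had an array far from the other 3, and chance gives such a gap in about 1 group of 20. All 4 were in muscle. Apoa5 was -3.07 in the third wild-type mouse, where the hepatocyte markers summed to 6.83, and -5.36 to -5.08 in the other 3. Apoa5 was -6.72 in the fourth Akt1+/- mouse and -5.08 to -4.79 in the others, and Apoa4 was -7.37 in that mouse and -5.33 to -5.08 in the others, both not well above background. Apob was -4.59 in the third Akt1+/- mouse and -7.40 to -7.36 in the others, also not well above background.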

How the results depend on the processing

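Of the 10 genes in liver, 1 passed for genotype, and the count was 0 with normexp and quantile normalization, with no filter on dim probes, with the mean of all probes, in 1 fit over all 42 arrays and with slide as a random block, 2 (Apoc3 and Apoa4) with the replicate block and 4 when scaled to the median. It was 0 to 1 when an array was left out. For age in liver 1 passed, and 0 did with the mean of all probes and in 1 fit over all 42 arrays, while 5 did when scaled to the median. Scaling to the median also gave 2 calls for genotype at 8 weeks and 1 at 35 weeks in liver, where there were 0. The fit over all 42 arrays gave 3 calls for age in muscle (Apoa1, Apoa2 and Apoa5) and 1 for genotype at 8 weeks in fat (Apoh), where there were 0. Apoa1 did not meet the filter in muscle and Apoh did not in fat, so these calls rest on values near background. Leaving out an array gave 0 to 1 for age in muscle and for genotype, genotype at 8 weeks and the interaction in fat. This was Apoa2 each time, which was well above background on 7 of 14 muscle and 6 of 14 fat arrays. The 42-array fit shares 1 spread over tissues, and the SD of Apoc3 within groups was 0.117 in liver and 1.88 in muscle. Over all genes and the settings that left out no array, the number that passed for genotype was 239 to 2914 in liver (1047 as reported) and 41 to 567 in fat (143), and 0 to 281 in muscle (0). The replicate block changed no call of the 10 genes other than that of Apoa4 in liver. For single genes, 18 alternatives gained a call, 58 lost one and 1429 stayed on the same side of the threshold, called or not. Scaled to the median, the liver differences of Apob for genotype and Apoe for age were -0.24 (adjusted p = 0.0373) and -0.21 (adjusted p = 0.0396), but 0.13 and 0.07 with normexp and quantile normalization, neither called.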
